A study of Homo sapiens with 105 samples.

Results

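The genes of the response to low oxygen and of glycolysis were followed in Caco-2, a cell line established from a colon adenocarcinoma of a human donor. A fixed list of 40 genes was looked up by symbol among the 63241 genes of the count table, and all 40 were found. The list holds the oxygen-regulated alpha subunits of the hypoxia-inducible factors (HIFs), HIF hydroxylases, known HIF targets, glucose and lactate carriers and the enzymes of glycolysis. The cells had been incubated with bacterial extracellular vesicles (BEVs), transfected with RNA isolated from them, or given lipopolysaccharide (LPS), and were harvested after 10, 24 or 48 h. Vesicles were membrane vesicles (MVs) of L. casei DSM 20011 (LcMV, 1.5e+11 particles) and of E. faecalis DSM 20478 (EfMV, 7.5e+09), and outer membrane vesicles (OMVs) of P. mirabilis DSM 4479 (PmOMV, 6.0e+09). Vesicle RNA of the same strains was transfected at 100 ng (LcRNA), 5 ng (EfRNA) and 2 ng (PmRNA), each beside the same amount of a non-targeting siRNA, the AllStars Negative Control (ANC100, ANC5 and ANC2). PBS was the control for incubation. LPS from P. mirabilis was given either in the medium (LPSinc, labelled 0.2 ng/µl) or by transfection (LPStrans, labelled 1 ng/µl), although the methods of the study give the same figures per ml. All 12 treatments were sampled at 10 and 24 h, and PBS, ANC100, LcMV and LcRNA also at 48 h. Every transfected group, the siRNA controls included, received Lipofectamine 3000, and all wells received fresh medium together with the agent. The hours therefore count time with the agent and time since the medium was renewed alike. No low-oxygen condition is named in the labels or methods, and all values come from 1 tumour line.

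HIF-1 and HIF-2 are made of an alpha subunit (HIF1A or EPAS1) and a constant partner. With oxygen present, prolyl hydroxylases (EGLN genes) mark the alpha subunit for destruction, so the factor is controlled mainly through its protein and little through its mRNA. When hydroxylation slows, the stabilised factor binds a short DNA element and raises genes for glucose uptake, glycolysis, lactate export, removal of mitochondria and vessel growth. Caco-2 cells resemble small intestinal enterocytes when they are left to differentiate, and epithelium of the gut is known to live in a steep oxygen gradient.

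Of the libraries in the table, 66 were used. The other 39, from lanes 2 to 4 of flow cell 1, were set aside because, in earlier results of these data, many of them had resembled libraries of other times or replicate numbers than their own, so the separation of the times described here rests partly on that choice. The 66 libraries hold 32 at 10 h, 26 at 24 h and 8 at 48 h, in 28 groups of 2 (20 groups), 3 (6) or 4 (2). Their total counts ran from 632659 to 8558755, with a median of 5563438, and 5 lay under 1500000. The members took 0.807 to 1.57% of the counts of a library. Replicate numbers 2 to 5 come from the labels, which do not place the replicates in separate cultures, so a p-value covers only the spread from library to library, which may be technical. Levels are given in CPM (counts per 1e+06), for members after TMM scaling and for markers of cell types from the library totals without it. Of 10 markers of intestinal epithelium 9 were over 1 CPM, with KRT8 leading and CDX1 at 14 counts in all. Of 10 markers of blood, stromal and endothelial cells, 7 were over 1 CPM, led by LYZ at 89.2 CPM and COL1A1 at 35.6 CPM, while PTPRC had 2 counts and DCN 7 in the 66 libraries together.

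The DNA element that HIFs bind has the core ACGTG or GCGTG, and RefSeq promoter windows, 250 bases before to 50 after a start site on GRCh38.p14, were available for 36 of the 40 members (VEGFA, NDRG1, BNIP3L and SLC2A3 had none in the table). ACGTG was found on either strand in 27 of the 61 member windows (44.3%), beside 21.4% of all 35116 windows. By gene, 23 of 36 members (63.9%) had it in at least 1 window, beside 24.9% of 27305 genes. GCGTG was found in 49.2% of the member windows and 36.5% of all windows. Many members were known HIF targets before, so the higher share describes the list and not these samples.

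Windows of 5 members that rose between 10 and 24 h and again between 24 and 48 h are printed below, 5′ to 3′, with SLC2A1 after them as a member that fell in the first of these steps. Capitals mark ACGTG and its reverse CACGT, and CACGTG holds both, so it counts once on each strand. They are BNIP3 at chr10:131981874-131982173 (- strand), PDK1 at chr2:172555840-172556139 (+ strand), ALDOC at chr17:28576846-28577145 (- strand), PGK1 at chrX:78103998-78104297 (+ strand), LDHA at chr11:18394313-18394612 (+ strand) and SLC2A1 at chr1:42958819-42959118 (- strand). PDK1 and LDHA have a further window each, in which the motif was not found.
BNIP3: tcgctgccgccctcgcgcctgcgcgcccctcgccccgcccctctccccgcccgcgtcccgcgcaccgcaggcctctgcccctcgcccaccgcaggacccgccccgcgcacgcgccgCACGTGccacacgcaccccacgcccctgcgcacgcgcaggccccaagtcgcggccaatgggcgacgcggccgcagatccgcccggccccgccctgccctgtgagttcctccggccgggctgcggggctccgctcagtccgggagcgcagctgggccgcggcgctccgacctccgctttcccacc
PDK1: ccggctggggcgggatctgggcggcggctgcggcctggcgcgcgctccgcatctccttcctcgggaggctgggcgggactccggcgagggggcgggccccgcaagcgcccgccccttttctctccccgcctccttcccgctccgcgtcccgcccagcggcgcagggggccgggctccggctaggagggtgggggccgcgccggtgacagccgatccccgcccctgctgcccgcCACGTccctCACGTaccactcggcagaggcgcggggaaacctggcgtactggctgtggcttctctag
ALDOC: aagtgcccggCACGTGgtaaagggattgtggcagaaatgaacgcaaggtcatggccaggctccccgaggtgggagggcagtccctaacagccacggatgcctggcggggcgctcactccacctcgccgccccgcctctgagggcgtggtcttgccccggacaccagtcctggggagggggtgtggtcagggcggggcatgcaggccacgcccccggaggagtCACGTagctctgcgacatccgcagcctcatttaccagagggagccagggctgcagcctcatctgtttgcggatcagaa
PGK1: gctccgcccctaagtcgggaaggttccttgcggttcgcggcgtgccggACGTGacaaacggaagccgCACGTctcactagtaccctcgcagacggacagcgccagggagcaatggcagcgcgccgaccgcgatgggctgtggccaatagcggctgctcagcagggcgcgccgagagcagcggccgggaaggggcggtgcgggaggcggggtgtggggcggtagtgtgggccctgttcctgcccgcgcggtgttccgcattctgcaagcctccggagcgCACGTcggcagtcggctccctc
LDHA: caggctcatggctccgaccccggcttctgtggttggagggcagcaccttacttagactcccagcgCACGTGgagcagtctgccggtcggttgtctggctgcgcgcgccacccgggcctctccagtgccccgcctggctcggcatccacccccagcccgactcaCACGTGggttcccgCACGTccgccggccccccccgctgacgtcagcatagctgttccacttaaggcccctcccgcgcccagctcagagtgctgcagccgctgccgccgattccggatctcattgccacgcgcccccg
SLC2A1: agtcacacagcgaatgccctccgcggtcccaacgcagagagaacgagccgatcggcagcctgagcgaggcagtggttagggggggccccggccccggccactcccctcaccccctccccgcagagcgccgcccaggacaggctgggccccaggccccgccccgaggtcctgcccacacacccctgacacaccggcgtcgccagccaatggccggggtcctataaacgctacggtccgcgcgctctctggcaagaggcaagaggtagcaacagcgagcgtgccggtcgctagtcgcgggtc

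Counted on both strands, ACGTG occurred 5 times in the LDHA window, at -185, -184, -87, -86 and -73 from the start site, and 3 times in those of PGK1 (-202, -183 and 29) and ALDOC (-240, -239 and -28). BNIP3 (-134 and -133) and PDK1 (-17 and -8) each held 2. The SLC2A1 window had no ACGTG and 1 GCGTG at 26, which says only that these letters are not in these 300 bases. The windows printed are examples, and other members went the other way. HK1, PFKL, P4HA2 and KDM3A rose at both steps and had no ACGTG in any window. HK2 fell at the first step with 2 and 4 matches in its windows, and PFKP fell with 1. Whether motif and change go together was not tested. A match is a description of the sequence, and no binding was measured here.

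Per kilobase of exon, glycolytic enzymes were the most abundant members at every time. At 10 h the median was 1114 CPM per kb for GAPDH, 248 for TPI1, 231 for ENO1, 180 for the glucose carrier SLC2A3 and 96.3 for LDHA. NDRG1, a stress gene induced by low oxygen, stood at 4.67 CPM per kb at 10 h and 35.8 at 48 h, above HIF1A (22.8) at that time. ANGPTL4, a secreted inhibitor of lipoprotein lipase, was lowest among the members that were tested, at 0.464 CPM per kb at 10 h. CA9, a surface carbonic anhydrase much used as a hypoxia marker, had 20 counts in 14 of the 66 libraries, at most 3 in any of them, and was the 1 member that did not pass the filter on low counts. The other 39 entered the tests. ALDOA, EGLN1 and ANKRD37 share 54.2, 55.8 and 40.3% of their exon bases with another annotated gene, and the strand setting of the counting is not given in the sources used here, so their values are uncertain.

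The first question was how these genes moved with the hours in culture, averaged over treatments. From 10 to 24 h, over the 12 treatments, 22 of 39 members rose and 7 fell in edgeR's quasi-likelihood test, while 54.9% of all 18775 genes tested changed (27.7% up, 27.2% down). The median log2 change of the members was 0.18 and that of all genes 0 (log2 changes are given ± SE throughout). From 24 to 48 h, over the 4 treatments sampled at both times, 25 members rose and 3 fell, with 43.5% of all genes changed (20.3% up, 23.2% down) and a median of 0.42 against 0. The 24 h libraries of 4 treatments enter both steps, so the steps are not independent of each other. These are bulk libraries, in which a change in the RNA of each cell and a change in the share of cells in 1 state cannot be told apart. The markers of epithelium also moved: their summed level was 8170 to 9380 CPM at 10 h, 6080 to 8760 at 24 h and 5190 to 7230 at 48 h, with 3 of 9 higher and 5 lower at the first step and 4 and 5 at the second, and the part of this in the members' changes was not tested.

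HIF1A, the alpha subunit of HIF-1, hardly moved. It was at 111, 124 and 143 CPM at 10 h (lowest, median and highest of the 32 libraries), 101.9, 126 and 144 at 24 h (26 libraries) and 107, 117 and 125 at 48 h (8 libraries). The ranges overlap almost wholly. Its log2 change was 0.016 ± 0.024 (SE, adjusted p = 0.607) at the first step and -0.099 ± 0.042 (SE, adjusted p = 0.0469) at the second, the latter a small fall just past the threshold. EPAS1, the alpha subunit of HIF-2, fell by 0.24 ± 0.025 (SE, adjusted p = 7.15e-14) from 10 to 24 h and rose by 0.36 ± 0.043 (SE, adjusted p = 1.9e-11) from 24 to 48 h.

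The group named mitophagy and stress holds NDRG1, BNIP3, BNIP3L, MXI1, INSIG2 and ANKRD37, and its name does not describe MXI1 and INSIG2. In this group 5 of 6 rose at the first step (median log2 change 0.74) and 6 of 6 at the second (0.89). NDRG1 stood at 35.3, 56.1 and 214 CPM at 10 h, 100.4, 151 and 205 at 24 h and 308, 429 and 576 at 48 h (lowest, median and highest). No 48 h library overlapped the 24 h libraries, whereas 6 libraries of 10 h (both of LPS in the medium and replicate 2 of ANC2, EfMV, LPStrans and PmRNA) lay above the lowest of 24 h. The log2 changes were 0.99 ± 0.11 (SE, adjusted p = 2.08e-09) and 1.55 ± 0.18 (SE, adjusted p = 3.67e-09). BNIP3, a mitophagy receptor of the outer mitochondrial membrane, went from 7.96, 15.1 and 40.2 CPM to 23.1, 35.1 and 71.0 and then 72.2, 96.4 and 108. All 8 libraries of 48 h lay above the 26 of 24 h. BNIP3 rose by 1.13 ± 0.089 (SE, adjusted p = 1.63e-13) and 1.25 ± 0.12 (SE, adjusted p = 4.84e-11) on the log2 scale. Its relative BNIP3L rose most of all members at the first step, by 1.67 ± 0.071 (SE, adjusted p = 2.8e-21), from 10.5, 16.9 and 43.2 to 38.8, 62.2 and 99.6 CPM. At the second step it rose by 0.78 ± 0.096 (SE, adjusted p = 1.69e-08). MXI1, an antagonist of MYC, and INSIG2, which holds back sterol synthesis, rose at both steps, by 0.50 ± 0.087 and 0.74 ± 0.13 and by 0.26 ± 0.091 and 0.83 ± 0.14. ANKRD37 did not pass at the first step (0.32 ± 0.14, adjusted p = 0.0584) and rose by 0.95 ± 0.22 at the second.

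Both pyruvate dehydrogenase kinases, which switch off the entry of pyruvate into the mitochondrial cycle, rose at both steps, with a median log2 change of 1.15 and 1.26. PDK1 was at 12.01, 17.0 and 65.7 CPM at 10 h, 32.1, 52.5 and 98.3 at 24 h and 96.1, 124 and 136 at 48 h. PDK3 was at 6.85, 9.35 and 15.4 CPM at 10 h, 10.7, 20.5 and 38.6 at 24 h and 43.5, 56.7 and 86.9 at 48 h. PDK1 showed 1 library of 24 h within the 48 h range, while PDK3 showed none. Log2 changes were 1.15 ± 0.10 (SE, adjusted p = 7.27e-12) and 1.06 ± 0.15 (SE, adjusted p = 2.11e-07) for PDK1 and 1.15 ± 0.077 (SE, adjusted p = 9.88e-17) and 1.46 ± 0.099 (SE, adjusted p = 4.7e-16) for PDK3.

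The HIF hydroxylases divided. EGLN1, the main HIF prolyl hydroxylase, rose by 0.24 ± 0.064 (SE, adjusted p = 0.00168) at the first step and EGLN3 fell by 0.57 ± 0.095 (SE, adjusted p = 2.76e-07), and neither passed at the second (0.16 ± 0.10 and 0.35 ± 0.17, adjusted p = 0.222 and 0.0938). P4HA1 and P4HA2, which hydroxylate collagen, rose at both steps. P4HA1 was at 40.1, 50.7 and 81.5 CPM at 10 h, 51.4, 77.0 and 115 at 24 h and 122, 140.5 and 185 at 48 h. Its log2 changes were 0.49 ± 0.06 and 0.92 ± 0.094, and those of P4HA2 0.20 ± 0.04 and 0.70 ± 0.064. KDM3A, a histone demethylase, rose by 0.57 ± 0.049 and 0.42 ± 0.08. ERO1A, an oxidase of the endoplasmic reticulum, had -0.091 ± 0.045 at the first step (adjusted p = 0.0907) and rose by 0.38 ± 0.078 at the second. Among the secreted factors, VEGFA, the vessel growth factor, rose by 0.18 ± 0.025 (SE, adjusted p = 4.65e-09) and 0.51 ± 0.043 (SE, adjusted p = 2.22e-17), from a median of 151 to 169 and 229 CPM. ADM, the vasodilator peptide adrenomedullin, fell by 0.36 ± 0.077 (SE, adjusted p = 0.000138) and then had 0.011 ± 0.14 (adjusted p = 0.963). ANGPTL4 had 0.31 ± 0.16 (adjusted p = 0.0882) and rose by 0.83 ± 0.23, at levels under 4 CPM in every library.

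**Figure D1:**
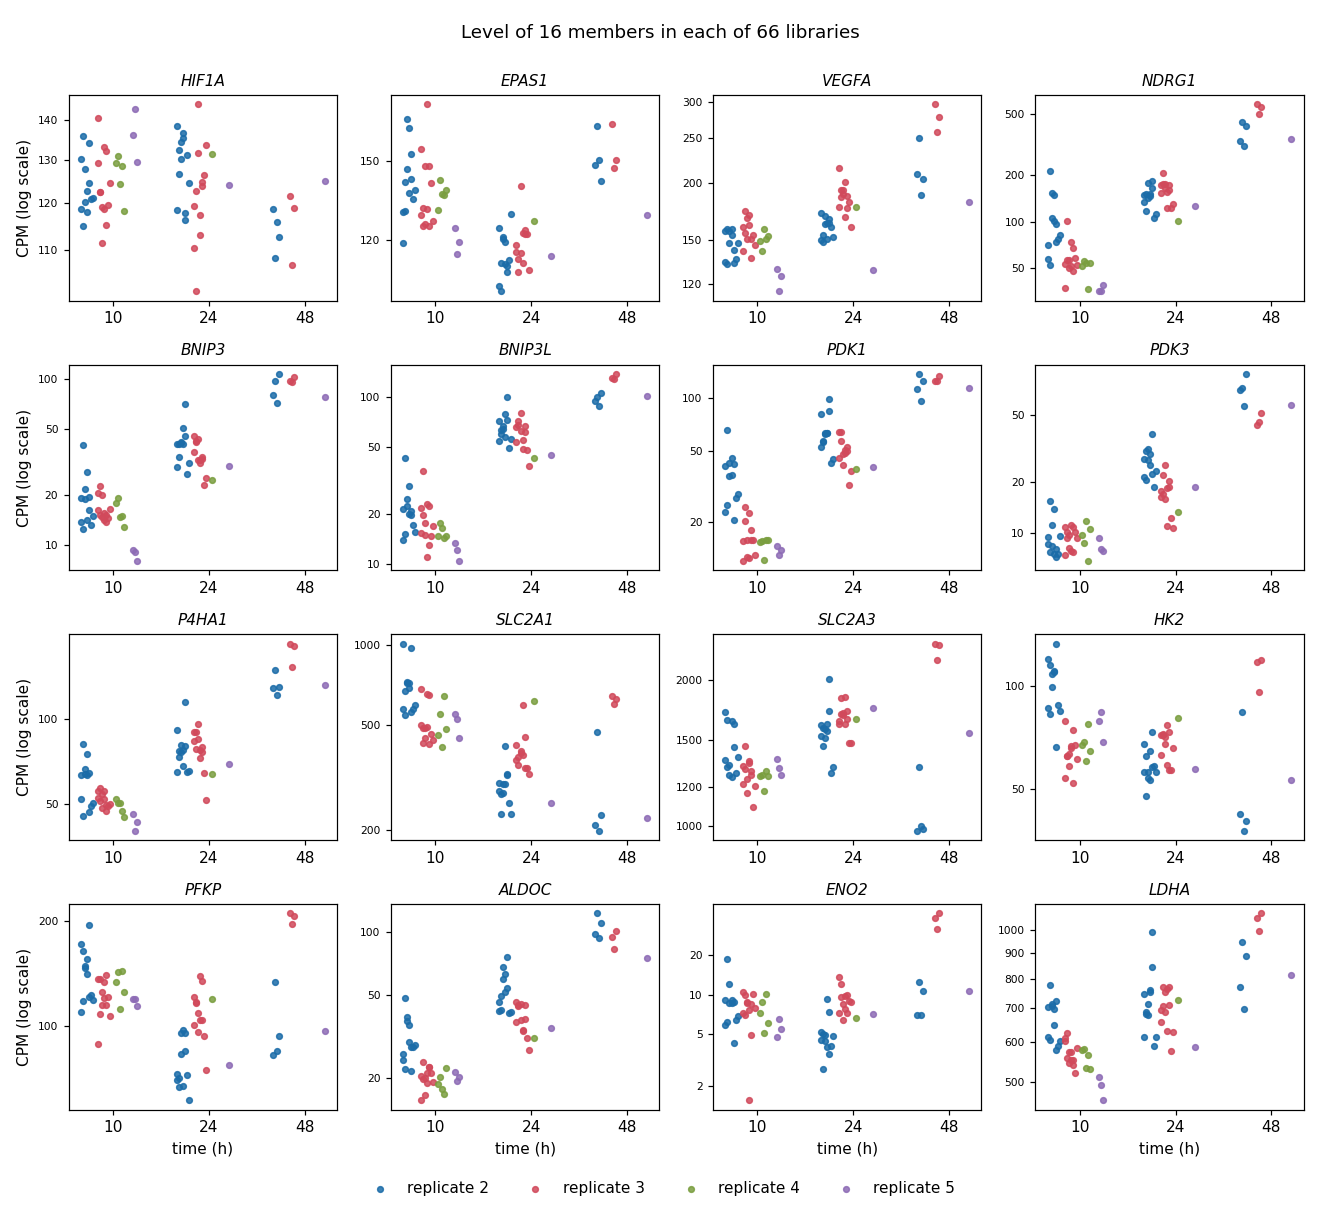
Level of 16 members in each of the 66 libraries by hours of culture, in CPM on a log axis that differs between panels, 1 point per library coloured by replicate number. NDRG1, BNIP3, BNIP3L, PDK1, PDK3 and ALDOC climb from 10 to 48 h, HIF1A stays between 101.9 and 144.2 CPM, and SLC2A1, SLC2A3, HK2, PFKP and ENO2 divide by replicate number at 48 h.

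The glucose and lactate carriers each took their own course. SLC2A1, the basal glucose carrier GLUT1, was at 411, 549.7 and 1016 CPM at 10 h and 229, 334 and 616 at 24 h, and fell by 0.80 ± 0.11 on the log2 scale (SE, adjusted p = 8.51e-08). At 48 h it spread over 199, 348 and 645 CPM, and its change from 24 h was 0.23 ± 0.19 (SE, adjusted p = 0.348). SLC2A3, the high-affinity carrier GLUT3 and the more abundant one per kilobase (224 against 50.6 CPM per kb at 24 h), rose by 0.27 ± 0.072 (SE, adjusted p = 0.00182) and then had -0.099 ± 0.13 (SE, adjusted p = 0.568). SLC16A3, the lactate exporter MCT4, was low, with medians of 7.98, 8.21 and 11.9 CPM. Its change was 0.039 ± 0.16 (SE, adjusted p = 0.855) at the first step and 1.11 ± 0.23 (SE, adjusted p = 0.000161) at the second, where its highest library reached 41.6 CPM.

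In upper glycolysis 6 of 10 members rose and 2 fell from 10 to 24 h, and 6 rose and 1 fell from 24 to 48 h. Isoforms of 1 enzyme went different ways. Of the hexokinases, which trap glucose as its phosphate, HK1 rose by 0.86 ± 0.083 (SE, adjusted p = 2.4e-15), from a median of 4.64 to 8.08 CPM, and HK2 fell by 0.38 ± 0.11 (SE, adjusted p = 0.00457), from 71.5 to 62.7 CPM. At the second step HK1 rose by 0.59 ± 0.12 and HK2 had 0.18 ± 0.20 (adjusted p = 0.495). Of the phosphofructokinases, which commit sugar to glycolysis, PFKL rose by 0.23 ± 0.025 and 0.43 ± 0.042, while PFKP fell by 0.51 ± 0.09 and then rose by 0.57 ± 0.16. Of the bifunctional enzymes that set their activator, PFKFB4 rose by 0.91 ± 0.20 (SE, adjusted p = 0.000186) and 1.26 ± 0.27 (SE, adjusted p = 0.000205), with levels of 4.70, 8.78 and 53.6 CPM at 10 h, 14.3, 25.01 and 46.3 at 24 h and 32.0, 56.9 and 99.8 at 48 h. PFKFB3 had 0.01 ± 0.088 and 0.33 ± 0.15 (adjusted p = 0.935 and 0.0643). Of the aldolases ALDOC rose by 0.81 ± 0.066 (SE, adjusted p = 3.59e-13) and 1.09 ± 0.095 (SE, adjusted p = 5.54e-12), with levels of 15.6, 21.5 and 48.5 CPM at 10 h, 27.1, 43.2 and 76.1 at 24 h and 74.7, 96.4 and 123 at 48 h. ALDOA rose by 0.14 ± 0.033 and 0.38 ± 0.054. GPI had 0.017 ± 0.024 at the first step (adjusted p = 0.565) and fell by 0.10 ± 0.042 at the second (adjusted p = 0.0382), and TPI1 rose by 0.13 ± 0.021 and then had 0.077 ± 0.038 (adjusted p = 0.0947).

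In lower glycolysis 3 of 7 rose and 1 fell at each step, with changes under 0.4 on the log2 scale for all but ENO2. LDHA, which turns pyruvate into lactate, was at 459.8, 580.3 and 779 CPM at 10 h, 576, 701 and 994 at 24 h and 699, 919.5 and 1082 at 48 h, and rose by 0.21 ± 0.044 (SE, adjusted p = 8.3e-05) and 0.32 ± 0.076 (SE, adjusted p = 0.000886). PGK1, the first ATP-forming enzyme of the pathway, rose by 0.17 ± 0.037 (SE, adjusted p = 0.000217) and 0.31 ± 0.063 (SE, adjusted p = 0.000119). GAPDH, often used as a reference gene, rose by 0.13 ± 0.019 (SE, adjusted p = 8.31e-09) from a median of 2670 to 2982 CPM and then had 0.022 ± 0.034 (SE, adjusted p = 0.641). Its rise was seen in each of the 12 treatments. ENO1 fell by 0.077 ± 0.03 (SE, adjusted p = 0.0292) and PKM by 0.17 ± 0.045 at the second step (SE, adjusted p = 0.00196). ENO2, the neuron-type enolase, had -0.29 ± 0.18 (SE, adjusted p = 0.191) and then rose by 1.48 ± 0.28 (SE, adjusted p = 3.37e-05), at medians of 7.76, 7.20 and 11.6 CPM. PGAM1 passed at neither step.

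**Figure D2:**
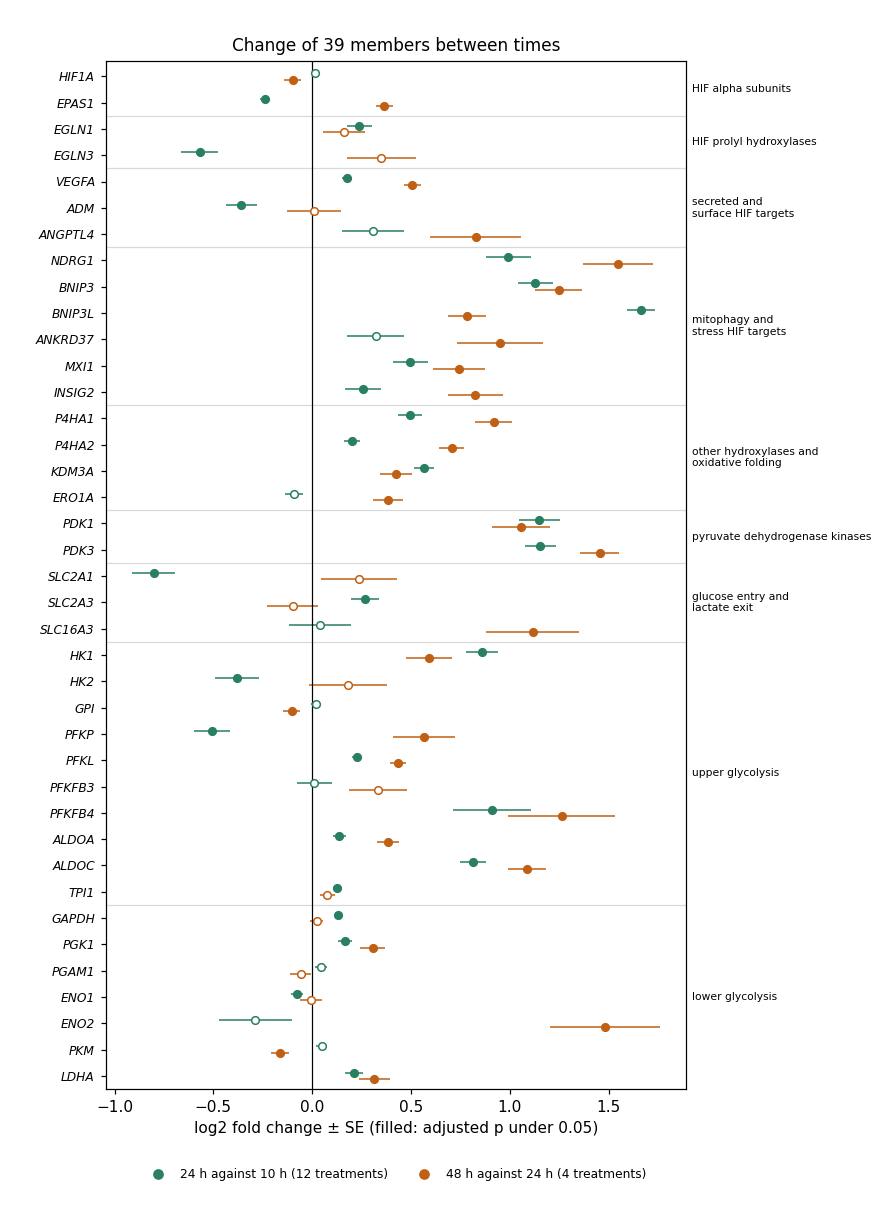
Log2 fold change (x axis, ± SE) of the 39 members from 10 to 24 h (12 treatments) and from 24 to 48 h (4 treatments), grouped by role, with filled points at an adjusted p under 0.05. The group named mitophagy and stress and both PDK genes lie to the right at both steps, SLC2A1, PFKP and HK2 lie to the left at the first, and HIF1A stays near 0.

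Some of these calls rest on 1 replicate number or on the lanes. Without replicate 2, HK2 no longer fell at the first step (0.027, adjusted p = 0.681) and GPI no longer fell at the second (0.008, adjusted p = 0.91). Without replicate 3, EGLN1, INSIG2, SLC2A3 and PFKFB4 did not pass at the first step, and ANKRD37 and LDHA did not at the second. The small falls of HIF1A and GPI at the second step and of ENO1 at the first did not pass in DESeq2 either. With flow cell and lane as a further term, 16 members rose and 6 fell at the second step, and SLC16A3, ENO2, PFKFB4, LDHA, PGK1, PFKP, INSIG2, ERO1A and ANKRD37 no longer passed. NDRG1, BNIP3, BNIP3L, PDK1, PDK3, ALDOC, P4HA1, P4HA2, KDM3A, HK1, VEGFA and MXI1 still rose in it, NDRG1 by 1.101 and PDK3 by 1.36. The share of all genes called is not given for the fit with lanes, so its counts describe the members only.

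The direction of the first step was shared widely. Taken treatment by treatment, ALDOA, ALDOC, BNIP3, BNIP3L, GAPDH, HK1, KDM3A, LDHA, NDRG1, P4HA1, PDK1, PDK3, PFKL, SLC2A3 and TPI1 were higher at 24 h than at 10 h in all 12 treatments, and EPAS1, PFKP and SLC2A1 were lower in all 12. The share of all genes with the same direction in all 12 was not counted, so this describes the members only. The size differed between treatments, from 0.17 to 1.65 for NDRG1 and from 0.75 to 1.96 for BNIP3L on the log2 scale. In PBS alone, with 2 libraries at each time, 14 of 39 members rose and none of the 39 fell, while 7.15% of all genes changed (2.92% up). They include BNIP3L (1.94 ± 0.24, adjusted p = 1.96e-06), PDK1 (2.00 ± 0.39, adjusted p = 0.00102), BNIP3 (1.84 ± 0.32, adjusted p = 0.000197) and LDHA (0.60 ± 0.16, adjusted p = 0.0136). Both PBS libraries of 10 h were run on flow cell 2 and both of 24 h on flow cell 1. Time and flow cell therefore cannot be told apart in PBS alone. In the mean of the 3 siRNA controls 17 rose and 3 fell, beside 30.7% of all genes. PBS and siRNA cultures also enter the mean over 12 treatments. Over all libraries, no member of the 39 had 24 h libraries wholly above or below those of 10 h (0.0852 and 0.24% of all genes did), and PDK3, NDRG1, KDM3A, P4HA1 and BNIP3 had 48 h libraries wholly above those of 24 h (1.24% of all genes).

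The libraries set aside did not follow this order. On a scale set over used and set-aside libraries together, NDRG1 was at 50.4 to 188 CPM in the 8 libraries of 48 h set aside and 305 to 573 in the 8 used, and at 10 h at 48.9 to 372 in 13 set aside and 34.9 to 213 in 32 used. BNIP3 at 48 h was at 9.16 to 52.2 CPM set aside and 71.5 to 106 used, and PDK3 at 9.16 to 28.3 and 43.3 to 86.1. The 48 h levels of these 3 genes did not overlap between the libraries set aside and those used, and the share of all genes without such overlap is not given. With the set-aside libraries included in the test and the same block, 22 members rose and 4 fell from 10 to 24 h, but 5 rose (PDK3, NDRG1, BNIP3, P4HA1 and ALDOC) and none of the 39 fell from 24 to 48 h, and in PBS alone none passed. The share of all genes called is not given for that fit. Whether the loss of calls is particular to the members therefore cannot be read from these counts.

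Replicate number also separated the members, and the separation changed with time. Replicate 3 was compared with replicate 2 within each time, across the treatments. At 10 h 8 members were higher and 22 lower in replicate 3, beside 50% of all genes called (24.9% higher, 25.1% lower). At 24 h 15 were higher and 9 lower, beside 52.9%. At 48 h 28 were higher and 1 lower, beside 36.5% (18.1% higher), and the median log2 difference of the members was 0.40 against 0 over all genes. At 48 h, 24 members had all 3 replicate 3 libraries above the 4 of replicate 2, beside 19.1% of all genes, and PDK3 had them below. At 48 h all libraries of replicates 3 and 5 were run on lane 4 of flow cell 2 and none of replicate 2 was, so replicates 2 and 3 and their lanes cannot be told apart there. PBS replicate 5, on the lane of replicate 3, lay at or below the highest replicate 2 library for 19 of those 24 members and between replicates 2 and 3 for the other 5. At 10 and 24 h each of replicates 2 and 3 was spread over 3 lanes, but unevenly. Lane 1 of flow cell 1 held 1 library of replicate 3 and 4 of replicate 2 at 10 h. At 24 h it held 9 of replicate 3 and 3 of replicate 2.

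The 3 carriers show the pattern. At 48 h SLC2A3 was at 977 (ANC100), 1319 (LcMV), 1001 (LcRNA) and 987 CPM (PBS) in replicate 2, at 2376, 2198 and 2360 in replicate 3 of the first 3 groups, and at 1555 in PBS replicate 5. The difference between replicates 3 and 2 was -0.18 ± 0.043 at 10 h, 0.095 ± 0.043 at 24 h and 1.08 ± 0.086 (SE, adjusted p = 1.52e-12) at 48 h, all log2. SLC2A1 was at 209 (ANC100), 468 (LcMV), 199 (LcRNA) and 228 CPM (PBS) in replicate 2, at 645, 598 and 625 in replicate 3 of the first 3 groups, and at 222 in PBS replicate 5. LcMV stood above the other groups within replicate 2, and PBS replicate 5 lay with replicate 2. Its differences were -0.46 ± 0.071 (SE, adjusted p = 1.95e-06), 0.43 ± 0.074 (SE, adjusted p = 7.48e-06) and 1.18 ± 0.14 (SE, adjusted p = 4.44e-08) at the 3 times, so its sign turned between 10 and 24 h. SLC16A3 was at 10.4 (ANC100), 12.5 (LcMV), 8.82 (LcRNA) and 11.4 CPM (PBS) in replicate 2, at 38.1, 30.3 and 41.6 in replicate 3 of the first 3 groups, and at 9.18 in PBS replicate 5. The 3 values of replicate 3 stood apart from the other 5. SLC16A3 differed by -0.29 ± 0.11, 0.47 ± 0.10 and 1.76 ± 0.14.

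HK2 and PFKFB4 also went from lower to higher in replicate 3. HK2 differed between replicates 3 and 2 by -0.64 ± 0.083, 0.18 ± 0.088 and 1.03 ± 0.15 (log2 ± SE at 10, 24 and 48 h, adjusted p = 8.34e-08, 0.0804 and 1.87e-06), and PFKFB4 by -1.32 ± 0.17, 0.50 ± 0.13 and 1.15 ± 0.17. ENO2 gave the widest gap of the 39 at 48 h, 2.06 ± 0.22 (SE, adjusted p = 1.64e-09), with 6.95 to 12.5 CPM in replicate 2 and 31.6 to 41.7 in replicate 3. PFKFB3 differed by 0.054 ± 0.059, 0.75 ± 0.058 and 1.27 ± 0.10, and ANKRD37 by 1.64 ± 0.16 at 48 h. LDHA differed by -0.22 ± 0.047, -0.049 ± 0.046 and 0.38 ± 0.09. Other members kept 1 direction. P4HA2 was higher in replicate 3 at each time (0.71 ± 0.058, 0.63 ± 0.053 and 0.58 ± 0.082), as was GPI (0.19 ± 0.026, 0.34 ± 0.026 and 0.57 ± 0.05). PDK3 was lower in replicate 3 at 24 and 48 h (-0.62 ± 0.074 and -0.51 ± 0.097) and had -0.065 ± 0.11 at 10 h (adjusted p = 0.646). HIF1A passed at 24 h alone, with -0.084 ± 0.032 (SE, adjusted p = 0.0204).

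The change of the difference with time was tested itself. From 10 to 24 h the difference between replicates 3 and 2 moved up for 19 members and down for PDK3, beside 14.5% of all genes (9.35% up). From 24 to 48 h it moved up for 21 and down for none of the 39, beside 6.52% of all genes (3.05% up). The 24 h libraries enter both tests. All 3 carriers passed in both: SLC2A1 with 0.89 ± 0.10 (SE, adjusted p = 9.69e-08) and 0.75 ± 0.16 (SE, adjusted p = 0.00285), SLC2A3 with 0.27 ± 0.061 (SE, adjusted p = 0.00147) and 0.99 ± 0.096 (SE, adjusted p = 7.27e-09), and SLC16A3 with 0.76 ± 0.15 (SE, adjusted p = 4.65e-05) and 1.29 ± 0.18 (SE, adjusted p = 2.7e-08). Of lower glycolysis 6 of 7 passed from 24 to 48 h, among them ENO2 (1.101 ± 0.29, adjusted p = 0.015) and LDHA (0.43 ± 0.10, adjusted p = 0.00604). With the set-aside libraries included, 5 and 2 members moved up in these tests, and replicate 3 against 2 gave 2 higher and 13 lower at 10 h, 10 and 4 at 24 h, and 15 and 0 at 48 h. At 10 and 24 h the counts hardly changed with flow cell and lane as a further term (8 and 18, and 15 and 10). No share of all genes is given for these alternative fits.

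**Figure D3:**
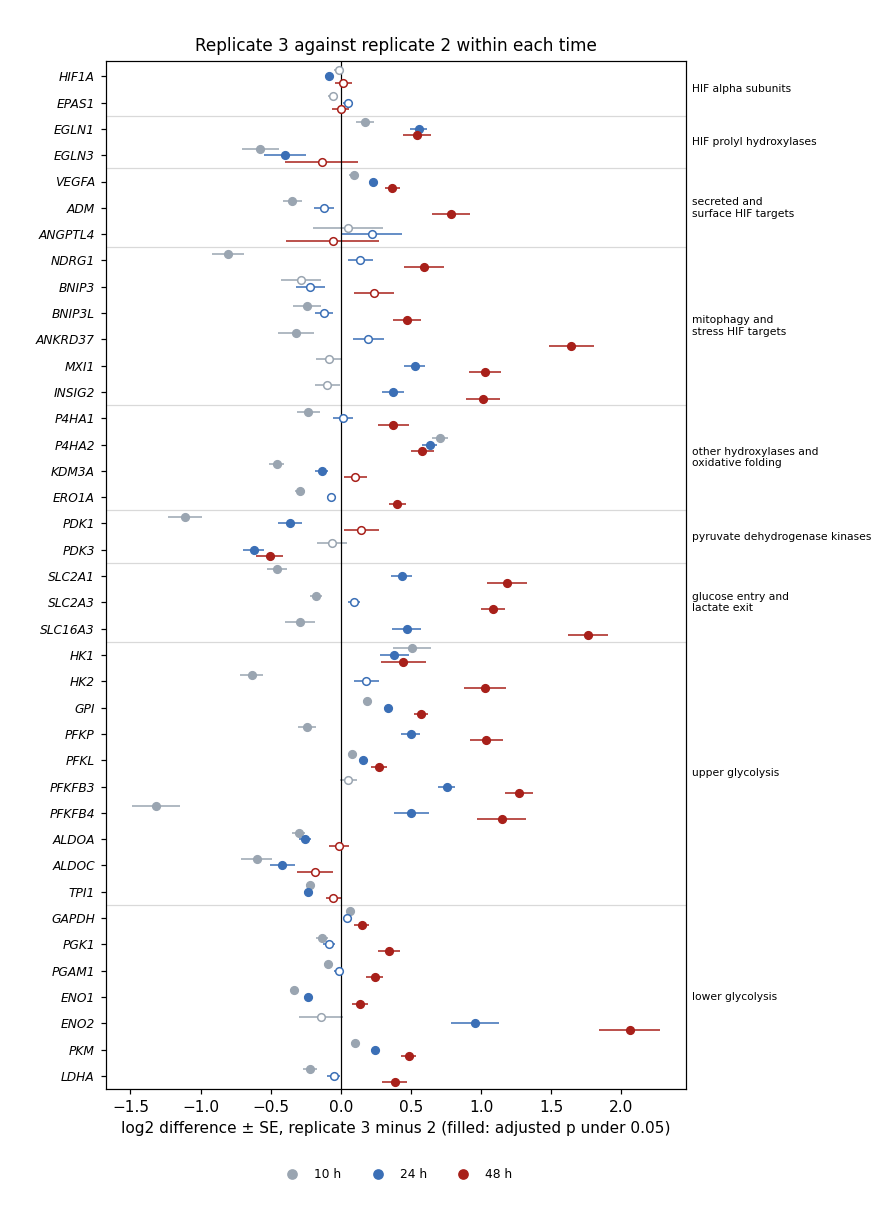
Log2 difference between replicates 3 and 2 (x axis, ± SE) of the 39 members at 10, 24 and 48 h, grouped by role, with filled points at an adjusted p under 0.05. The points of SLC2A1, SLC2A3, SLC16A3, HK2, PFKFB4 and ENO2 move to the right with time, P4HA2 and GPI stay to the right, and PDK3 lies to the left at 24 and 48 h.

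The study's own question was what vesicles, their RNA and LPS change. In 18 comparisons of a treatment with its control, 1 member passed in 1 comparison. GPI, which makes fructose 6-phosphate, was at 489.7 and 635 CPM in the LcMV libraries of 48 h (replicates 2 and 3) and 399 and 382 in PBS (replicates 2 and 5). It was higher by 0.32 ± 0.09 (SE, adjusted p = 0.0308), while 2.75% of all genes passed (1.61% higher). The groups do not overlap, a trait whose share over all genes is not given for this comparison. They share only replicate 2, and replicate 3 of ANC100 and LcRNA at 48 h stood at 662 and 655 CPM. GPI did not pass once any of the 4 libraries was left out (adjusted p = 0.0781 to 0.263), nor with flow cell and lane as a further term (0.23, adjusted p = 0.166), nor with the set-aside libraries included. In the other 17 comparisons edgeR and DESeq2 called no member, while at an unadjusted p under 0.05 the count per comparison ran from 0 to 13. An edgeR fit with the block within each time called 3 for P. mirabilis OMVs against PBS at 10 h, named further on. Of all genes, 1.06% passed with P. mirabilis OMVs against PBS at 10 h and 0.112% at 24 h, 0.0373% with L. casei MVs at 10 h, 0.00533% at 24 h and 0% in the other 13. GPI aside, the colour map of all members and comparisons has stars in 1 column.

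The 13 belong to LPS in the medium at 10 h. NDRG1 was at 214 and 101.4 CPM with LPS (replicates 2 and 3) and 74.3 and 67.7 with PBS. PDK1 was at 65.7 and 24.2 CPM with LPS and 20.4 and 15.9 with PBS, and PFKFB4 at 53.6 and 19.4 with LPS and 11.9 and 9.88 with PBS. BNIP3 was at 40.2 and 22.5 CPM with LPS and 16.1 and 13.8 with PBS. Both LPS libraries lay above both PBS libraries for these 4 genes, and replicate 2 lay highest. The share of all genes with such an order is not given, so this describes the 4 genes only. Of the 39 members 36 had a positive log2 difference, with a median of 0.30 against -0.01 over all genes, and at an unadjusted p under 0.05 13 were higher, beside 3.86% of all genes. None reached an adjusted p under 0.05 in edgeR or DESeq2 (smallest unadjusted p = 0.00225 for BNIP3), and no gene of the 18775 did. Among the 12 libraries of replicate 2 at 10 h, the LPS library was highest for 22 of 39 members, where it was highest for 7.73% of all genes, and among those of replicate 3 it was highest for 13, beside 5.97%. PBS replicate 2 was lowest for 13, beside 16.1%. HIF1A had -0.05 ± 0.086 (SE, adjusted p = 1). All members are read in the same libraries, so the counts of members are not separate observations. Each kind of vesicle was compared with the same PBS libraries at 10 h, and most members had a positive difference there too. PDK1 differed by 1.27 with LPS, 0.89 with EfMV, 0.61 with LcMV and 0.54 with PmOMV, while NDRG1 had -0.45 with PmOMV. The share of all genes with a positive difference is not given. At 24 h LPS gave no call and 3 members at an unadjusted p under 0.05, all lower, beside 2.4% of all genes, and whether the 2 times differ was not tested for LPS.

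Against LPS, the P. mirabilis OMVs had 3 members lower at 10 h, beside 3.18% of all genes (1.88% lower). BNIP3L was at 21.2, 15.4 and 14.4 CPM with OMVs and 43.2 and 35.8 with LPS, a difference of -1.17 ± 0.23 (SE, adjusted p = 0.00215). NDRG1 was at 70.9, 37.1 and 36.8 CPM with OMVs, beside the LPS values above, and differed by -1.60 ± 0.37 (SE, adjusted p = 0.00913). PFKL was at 129, 144 and 144 CPM with OMVs and 168 and 159.7 with LPS, a difference of -0.27 ± 0.079 (SE, adjusted p = 0.0403). For each of the 3 genes the groups do not overlap, but the genes were picked by the test on these same values. The share of all genes without overlap in this comparison is not given. PBS stood at 20.8 and 22.1 CPM for BNIP3L, 74.3 and 67.7 for NDRG1 and 140.1 and 151 for PFKL, and the OMVs differed from PBS by -0.31 ± 0.28 (SE, adjusted p = 0.753), -0.45 ± 0.42 (SE, adjusted p = 0.763) and -0.087 ± 0.084 (SE, adjusted p = 0.769) in turn. The comparisons share libraries, so their values are only set side by side. BNIP3 (-0.87 ± 0.27, adjusted p = 0.0718) and ALDOC (-0.65 ± 0.21, adjusted p = 0.0869) missed the threshold. Without LPS replicate 2 none of the 3 passed (BNIP3L -1.03, adjusted p = 0.0843 and NDRG1 -1.003, adjusted p = 0.35 in edgeR), and without OMV replicate 3 BNIP3L alone did. PFKL was also lost without OMV replicate 2 or 4. With the set-aside libraries included none of the 39 passed (BNIP3L -0.28, adjusted p = 1). At 24 h no member of the 39 passed between OMVs and LPS in either test (0.154% of all genes in edgeR), and 1 had an unadjusted p under 0.05.

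**Figure D4:**
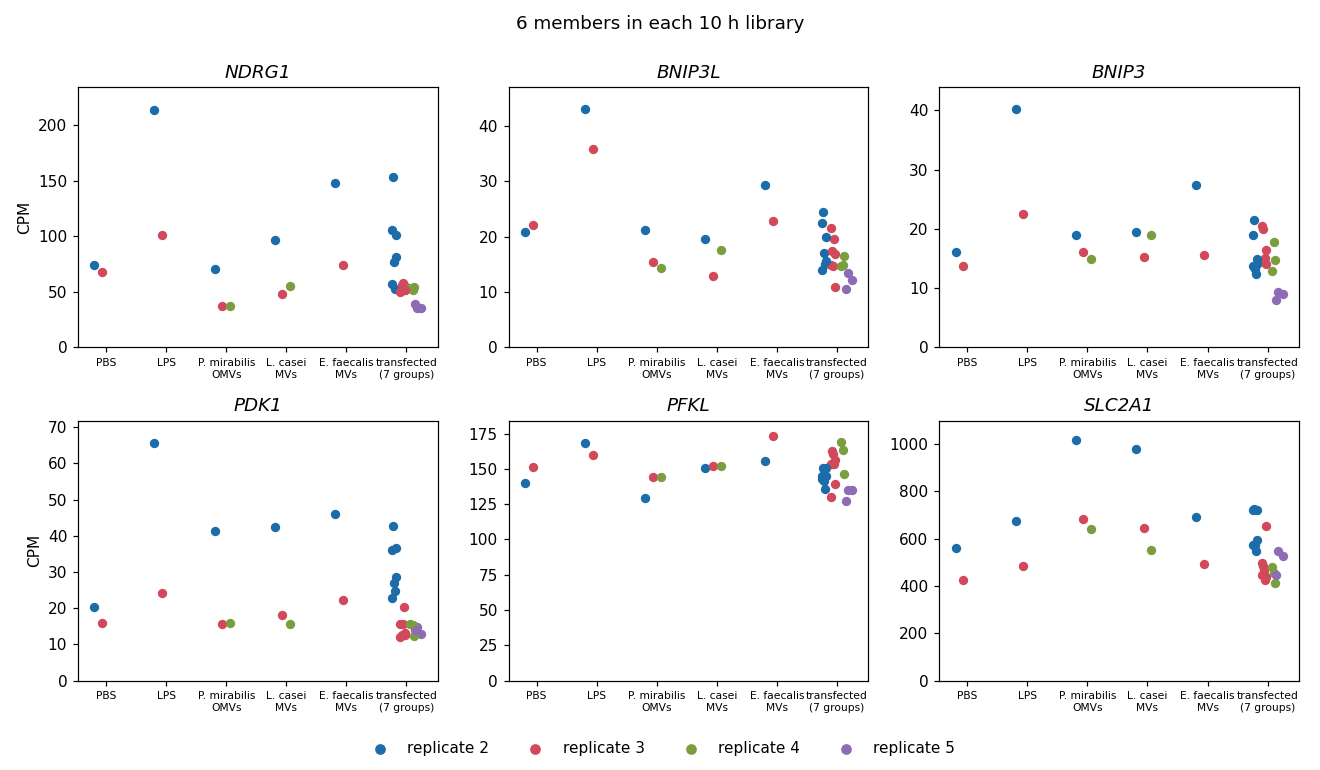
Level in CPM of NDRG1, BNIP3L, BNIP3, PDK1, PFKL and SLC2A1 in every 10 h library, by treatment, with points coloured by replicate number and the transfected groups together at the right. The LPS libraries are the highest or among the highest for NDRG1, BNIP3L and BNIP3, and within each treatment SLC2A1 is higher in replicate 2 than in replicate 3.

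SLC2A1 was higher than with PBS in most libraries of P. mirabilis OMVs and L. casei MVs at 10 h without passing the test. It stood at 1016, 683 and 640.4 CPM with P. mirabilis OMVs, 978, 646 and 550.2 with L. casei MVs and 562 and 424 with PBS. E. faecalis MVs stood at 690.1 and 492 CPM, near LPS in the medium at 674 and 486, and transfected PmRNA at 722 and 654. Every library of the first 2 vesicle groups except LcMV replicate 4, at 550.2 CPM, lay above both PBS libraries. The differences were 0.75 ± 0.36 (SE, adjusted p = 0.421) for the OMVs and 0.64 ± 0.36 (SE, adjusted p = 0.729) for the L. casei MVs. With the replicate block fitted within each time, the OMVs passed for SLC2A1 (0.75 ± 0.16, adjusted p = 0.00415 in edgeR), HK2 (0.68 ± 0.189, adjusted p = 0.0364) and ERO1A (0.30 ± 0.0773, adjusted p = 0.0138), beside 3.63% of all genes (1.68% higher). At 24 h SLC2A1 with transfected P. mirabilis vesicle RNA was at 417, 593 and 616 CPM, beside 297 and 399 for ANC2 and 276 and 389.6 for LPS transfected, with 0.73 ± 0.37 (SE, adjusted p = 0.792) against ANC2. The test of whether the difference of OMVs from PBS changed between 10 and 24 h called none of the 39 members in edgeR (0.032% of all genes), with 5 at an unadjusted p under 0.05, all lower, beside 6.25% of all genes with such a p.

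Route of delivery gave no call in the 66 libraries with the common block, and a few in other fits. In the mean of the siRNA controls against PBS edgeR and DESeq2 called no member of the 39 at 10 or 24 h, with 1 and 10 at an unadjusted p under 0.05 (7.34 and 6.41% of all genes). The 10 at 24 h were all lower after transfection, among them P4HA2 (-0.37 ± 0.10, adjusted p = 0.427), PDK3 (-0.55 ± 0.17, adjusted p = 0.558) and PGK1 (-0.32 ± 0.10, adjusted p = 0.601). At 24 h PDK3 passed with the block within each time (-0.55 ± 0.127, adjusted p = 0.0366 in edgeR, 0.123% of all genes lower), and P4HA2 passed without PBS replicate 3 (-0.63 ± 0.13, adjusted p = 0.0166, 0.0533% lower). PBS replicate 2 at 24 h was the highest of its 12 libraries for 19 of 39 members, beside 8.28% of all genes. ANC100 against PBS and LcMV against ANC100 at 48 h called no member (0.282 and 0.0213% of all genes), with 2 each at an unadjusted p under 0.05, beside 11% and 6.31% of all genes. Without ANC100 replicate 2, which leaves 1 ANC100 library of replicate 3, VEGFA, ADM, ANKRD37, SLC2A3, GPI and ENO1 were higher than in PBS (2.41% of all genes were higher). The 7 comparisons of vesicle RNA with siRNA called none, and their smallest adjusted p over the 39 members was 0.514, for P4HA2 with PmRNA at 24 h. HK1 was at 4.32 and 9.22 CPM with EfRNA and 2.82, 3.60 and 2.60 with ANC5 at 10 h, and differed by 1.37 ± 0.32 (SE, adjusted p = 0.526).

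**Figure D5:**
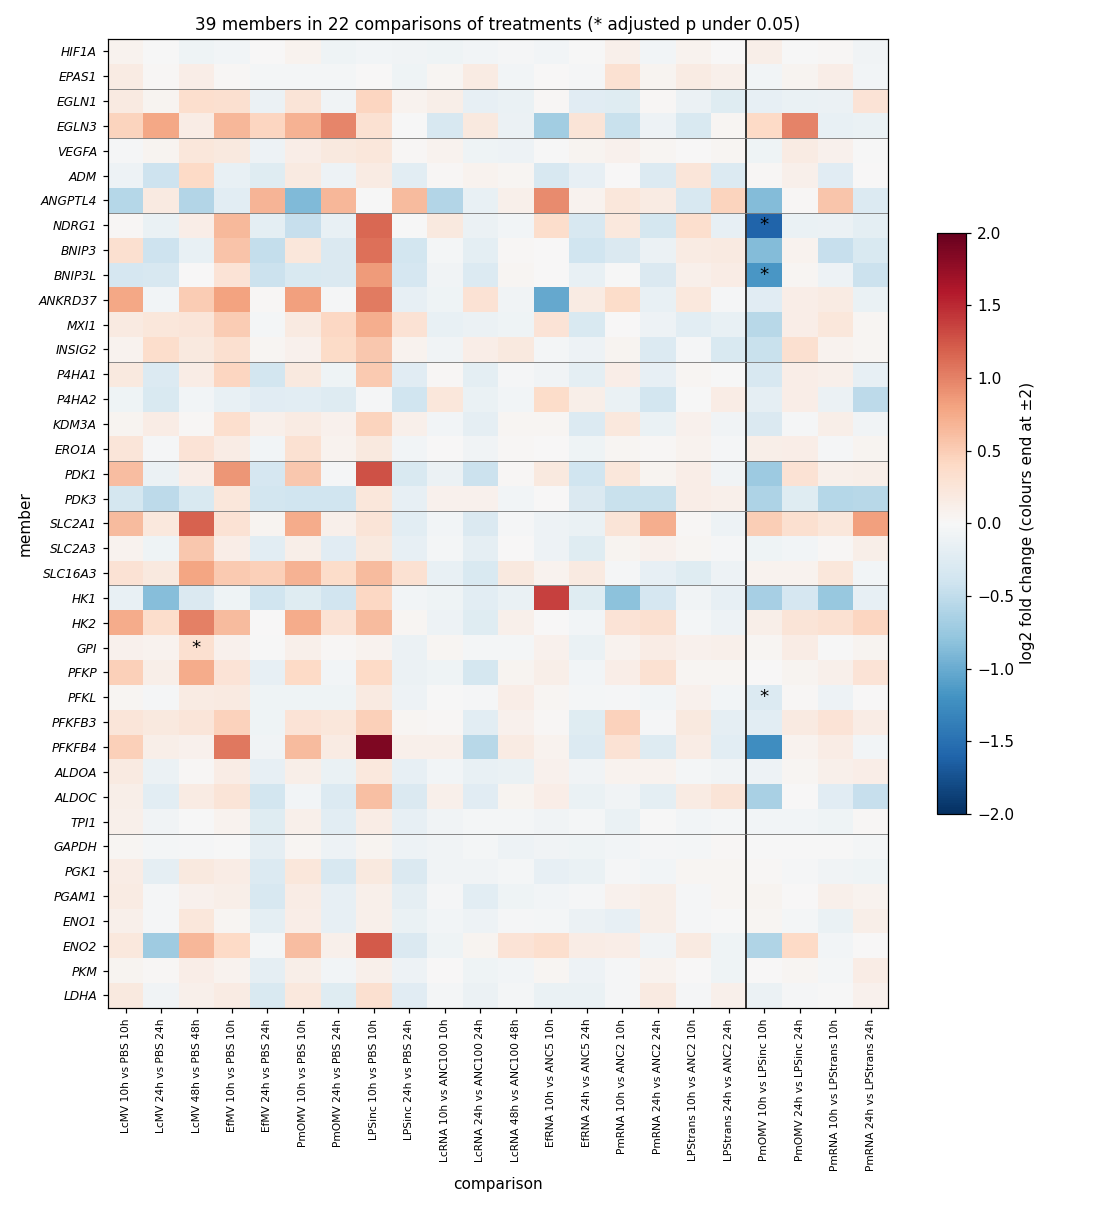
Log2 fold change of the 39 members (rows, by role) in the 18 comparisons of a treatment with its control and, to the right of the black line, the 4 against LPS, with colours that end at ±2 and a star at an adjusted p under 0.05. Stars stand for GPI with L. casei MVs at 48 h and for NDRG1, BNIP3L and PFKL with P. mirabilis OMVs against LPS at 10 h. The column of LPS against PBS at 10 h is red for 36 of 39 members, and those of the vesicles against PBS at 10 h for most.

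Genes of the same pathways outside the list of 40 were read beside it. Of all genes tested, 27.7% rose and 27.2% fell from 10 to 24 h, and 20.3% rose and 23.2% fell from 24 to 48 h. Of 25 further HIF targets that were tested, 14 rose and 6 fell from 10 to 24 h, with a median log2 change of 0.21, and 15 rose and 1 fell from 24 to 48 h, with a median of 0.32. LOX, which cross-links collagen, rose by 1.52 ± 0.19 and 2.52 ± 0.21, and DDIT4, an inhibitor of mTORC1, by 0.58 ± 0.23 and 1.73 ± 0.31. BHLHE40, a transcriptional repressor, rose by 0.47 ± 0.19 and 1.32 ± 0.27. Those that fell at the first step included JMJD6 (-0.50 ± 0.053) and TFRC, the transferrin receptor (-0.32 ± 0.032). In replicate 3 against 2 at 48 h 18 of these targets were higher and 2 lower, beside 18.1% higher and 18.3% lower of all genes. Of 22 further genes of sugar metabolism 12 rose and 7 fell at the first step and 9 and 5 at the second, led by the fructose carrier SLC2A5 (0.43 ± 0.13 and 2.34 ± 0.15) and the gluconeogenic PCK1 (1.19 ± 0.22 and 2.30 ± 0.23), while SLC16A1, a lactate carrier, fell by 0.50 ± 0.033 and TIGAR by 0.56 ± 0.052 at the first. Of 7 regulators of HIF, 3 rose and 3 fell from 10 to 24 h, and 1 rose and 2 fell from 24 to 48 h. ARNT, the constant partner, rose by 0.38 ± 0.031 at the first step, with VHL (0.11 ± 0.026) and HIF1AN (0.044 ± 0.019), and the alpha subunit HIF3A fell by 0.40 ± 0.059. CITED2, which competes with HIF for its coactivator, fell by 0.11 ± 0.036 and then rose by 0.59 ± 0.059, while HIF1AN fell by 0.14 ± 0.034 at the second step. HSP90AA1, a chaperone of the alpha subunit, fell by 0.71 ± 0.05 and 0.99 ± 0.09. With OMVs against LPS at 10 h the HIF targets FAM162A (-0.35 ± 0.11) and WSB1 (-0.44 ± 0.09) and the kinase PDK2 (-0.86 ± 0.23) were lower. Of all genes 1.88% were lower in that comparison, and the counts of each list in either direction are not given here. The fit without LPS replicate 2, in which NDRG1, BNIP3L and PFKL did not pass, is not given for these genes.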

How the data were processed

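RNA of Caco-2 cells had been sequenced after rRNA depletion, as paired reads, on 2 flow cells with 4 lanes each. Per the study's methods, the authors aligned reads to GRCh38 with STAR, marked duplicates with sambamba and counted with featureCounts, and they deposited raw counts per gene for each library; tool names are also in the submitters' processing notes. No molecular identifiers are described, so removal of duplicates can lower the counts of abundant genes, and the strand setting is not given in the sources used here. Groups and replicate numbers came from the labels.

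Genes were filtered with filterByExpr by group over all libraries (18775 of 63241 left, 39 of 40 members), counts were scaled by TMM, and edgeR 4.0.16 (R 4.3.3, limma 3.58.1) fitted all 28 groups of the 66 libraries with the replicate number as a block (quasi-likelihood F test, two-sided, Benjamini-Hochberg over all genes, adjusted p under 0.05). SE is the log2 change over the root of F. Replicate 3 against 2 within each time, and its change with time, came from a fit with the block within each time. Levels are CPM from TMM-scaled library sizes, except those of the cell type markers, which are from library totals. Alternatives were DESeq2 1.42.0, RLE size factors, no filter, no block, the block within each time, the set-aside libraries included, each library or replicate number left out and, chosen after seeing the data, flow cell and lane as a term, the omission of 5 libraries under 1500000 counts, and the change from 24 to 48 h. The members, the other lists and the choice of lanes were made with earlier results of these data known. Named were members past the test (up to 10 in each direction) and a fixed set of 16, and further genes after their values were seen. Simulated counts for OMVs against PBS at 10 h, with 18775 genes, gave back 44 of 50 genes raised 2-fold, 32 of 50 raised 1.5-fold, 40 of 50 lowered to 0.5 and 28 of 50 lowered to 0.667 of their level, with 9 unchanged genes called. The changed genes were not of low count, and no spread of each gene's own was simulated. In the real comparison, of 3 with 2 libraries, the SE of members ran from 0.0653 (GAPDH) to 0.765 (PFKFB4). These rates therefore do not tell how often a changed member would be called. No 2 libraries were identical. Promoter windows came from RefSeq.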

Additional observations from a re-analysis of the deposited data

Results flagged for a closer look

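Of 78 pairs of a member and a group of 4 libraries, 3 had 1 library far from the others. Chance gives about 1 in 20, so this count is near what chance gives. PDK1 stood at 28.53 CPM in LcRNA at 10 h replicate 2, while the other 3 lay at 12.23 to 13.89 CPM. EPAS1 stood at 115.4 CPM in ANC100 at 10 h replicate 5, below 130.4 to 131.4 CPM in the other 3. P4HA1 stood at 43.06 CPM in LcRNA at 10 h replicate 5, below 49.9 to 50.21 CPM.

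The difference between replicates 3 and 2 changed with time, by a test of the change itself, for 20 members from 10 to 24 h (19 up, 1 down) and for 21 from 24 to 48 h (all up). At 48 h replicate 3 was sequenced on 1 lane that held no library of replicate 2, so replicates 2 and 3 and their lanes cannot be told apart at that time. PBS replicate 5 was on that lane too and lay with replicate 2 for ENO2, at 10.6 CPM against 6.94 to 12.5 in replicate 2 and 31.6 to 41.7 in replicate 3. Of the 24 members wholly higher in replicate 3, it lay at or below the highest replicate 2 library for 19 and between the replicates for 5.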

How the results depend on the processing

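The data are counts, so depth limits the low genes: CA9 had too few to test, and the 5 libraries under 1500000 counts weigh most on ANGPTL4, HK1 and SLC16A3. Groups of 2 libraries leave single treatments to the spread pooled over groups, and a lone library left after an omission is taken to vary like the others. The labels give replicate numbers without a culture or day.

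For time, the counts of members called were 29 at the first step and 28 at the second, and with 1 replicate number left out they ran from 29 to 34 and 27 to 32, from 12 to 14 in PBS and from 17 to 24 in siRNA. With the set-aside libraries included and the block, the second step had 5 calls, and without the block 1. PBS alone had 0 in both, and 5 in the 66 libraries without the block, and siRNA had 11 with them and no block. The cause of these losses was not tested, and no share of all genes is given for these fits. For replicates with the set-aside libraries included, 15, 14 and 15 members passed at 10, 24 and 48 h, and 5 and 2 for its change with time.

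Without the replicate block the call of GPI with L. casei MVs at 48 h was lost (0 calls), as with the set-aside libraries included with or without it, with the block within each time, with flow cell and lane, without the libraries under 1500000 counts and in all 4 omissions of 1 library (0 to 0). OMVs against LPS at 10 h had 0 calls with the set-aside libraries included with or without the block. It had 5 in DESeq2, 5 with flow cell and lane, 9 with the block within each time, and 0 to 3 with 1 library left out. No share of all genes is given for these fits of OMVs against LPS, so their counts describe the members only. OMVs against PBS at 10 h had 3, and siRNA against PBS at 24 h had 1, with the block within each time. With 1 library left out, siRNA against PBS at 24 h gave 0 to 1 (PBS replicate 3) and ANC100 against PBS at 48 h gave 0 to 6 (ANC100 replicate 2). The pairing by replicate number was checked by correlating deviations from group means: over 22 comparisons with at least 2 shared numbers the lowest correlation per comparison was 0.201 to 0.691, with more than 2 pairs in 1, so it is a hint from the data.

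A change of sign was seen for HK2 from 10 to 24 h (0.027, and -0.678 without replicate 3) and GPI from 24 to 48 h (0.008, and -0.211 without replicate 3) without replicate 2, and for ANKRD37 in replicate 3 against 2 (-0.011) with flow cell and lane. RLE scaling and the fit without a filter changed no count by over 1.5 times.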
